A study of Mus musculus with 39 samples.

Results

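Epididymal adipose of C57BL/6J mice fed a low fat diet (LFC, fat giving 10% of calories) was compared between a late period (weeks 6, 9, 12, 15 and 18, 5 arrays) and an early one (days 1, 6, 10 and 14 and week 0, 5 arrays). These 10 were chosen by diet and time point from the 39 arrays of the series, and the LFC week 3 array was left out as faulty, with 16431 outlier spots against 21 to 387 on the 10. Mice had been weaned at 3 to 4 weeks of age and were randomised to the diets, and each time point was represented by 1 Agilent one-colour array, so the time points of a period served as its replicates and p-values measure only the spread between these arrays. The other diets of the series had 60% of calories from fat and more sucrose, without (HFC) or with a botanical formulation, and the 4 early and 4 late HFC arrays (days 6, 10 and 14 and week 0, and weeks 6, 9, 15 and 18) are set beside the LFC values. The study counted weeks from day 14, so week 0 may be the same time on the diet as day 14, which the labels leave unstated. Its design text speaks of 3 biological replicates, and whether an array holds RNA of 1 mouse or of several was not given in the sources used here. No genetic change was made in any group. Early mice were also younger than late ones, so time on the diet and age cannot be told apart.

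A level here is the log2 processed signal of a probe minus the 75th percentile of its array, so 0 is the level of a probe at that percentile and a difference of 1 is 2-fold. Between 61% and 79.2% of spots were well above background, a statement of the scanner software, and the 75th percentile lay at an intensity of 424 to 1276. Arrays of days 1 to 14 were scanned in another period than those of weeks 0 to 18, so the week 0 array, the early array that shares the scan period of the late ones, is given beside many of the results. Of the named genes outside immunoglobulins, cell division and histones, the late arrays averaged above week 0 for all 5 rises and below it for all 16 falls, with medians of 2.29 and -1.75. Week 0 took part in choosing these genes, and for none of them did the groups overlap, so this direction is no independent support. Over all probes, 8365 of the 13648 higher late and 7706 of the 16175 lower late kept their direction against week 0. Days 1 and 6 and week 12 stood apart: they correlated with each other at 0.94 to 0.954 across probes and with the other 7 arrays at 0.858 to 0.913, while the other 7 correlated among themselves at 0.916 to 0.97. All 8 adipocyte markers (among them Adipoq, Plin1 and Cidec) were well above background on every array. Between 1 and 8 of the 8 epididymis markers were so on a given array, and none of the 8 on all 10.

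The epididymal fat pad of a mouse grows after weaning both by the formation of new fat cells from dividing progenitors and by the filling of existing ones, and in the adult the second comes to dominate. Growing tissue lays down collagens and elastic microfibrils around cells and vessels, and it expresses imprinted growth genes whose expression declines with age. The same pad holds macrophages and lymphocytes, among them B lymphocytes in the clusters of visceral fat, and their antibody transcripts accumulate as a mouse matures. In bulk tissue, fewer cells of a type and less RNA per cell cannot be told apart, and the same holds for gains.

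Of 29823 probes tested, 217 (0.728%) passed an adjusted p of 0.05 by limma, 92 higher late (0.308%) and 125 lower (0.419%). Among the 92 higher probes 72 were of immunoglobulin chains, and the other 20 carried 5 gene symbols, the rest having only clone, transcript or predicted gene numbers. Of the 125 lower probes 93 were of cell division or histone genes, and the other 32 carried 16 gene symbols. The description below turns mainly on those 5 and 16 genes and on lists of tissue processes in which few or no members passed. The median difference of all probes tested was -0.05. At an unadjusted p under 0.05 by limma, 817 of the 29823 probes were higher late and 1411 lower. The list counts below at that mark are to be read beside these. The count depended on settings: 2 probes passed under another background correction (normexp with an offset of 50), 0 with the scan period as a block, so that week 0 alone carried the early side, and 116 (without day 6) to 205 when 1 array was left out. None of the named genes outside immunoglobulins, cell division and histones passed under normexp. Their calls were kept in 2 of 21 (Haspin) to 18 of 22 (Pask) alternative fits. Groups did not overlap for 257 probes higher (0.862%) and 360 lower late (1.21%), and they did not overlap for any of the 5 named rises and 16 falls, which were chosen on the same contrast. Since testing required 5 of the 10 arrays above background for a probe, 3 of the 92 higher and 19 of the 125 lower probes, well above background on no array of the dimmer period, entered only through the period in which they were brighter, and their p-values are not independent of that filter. Among the named genes these were Tnfrsf13b, Npnt, Tedc1, Efcab11 and Aunip.

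The promoter windows of 4 genes that fell are shown, to set the falls beside the letters of their promoters, from RefSeq on GRCm38.p6, each 250 bases before to 50 after the annotated start. The first, of Nrk (chrX:138914180-138914479, plus strand), belongs to the gene with the largest fall outside cell division, and Lpar4 (chrX:106920375-106920674, plus strand) and Tedc1 (chr12:113156171-113156470, plus strand) were chosen after the motif counts were seen, for the most CCAAT boxes. Cdk1 (chr10:69352863-69353162, minus strand), the kinase that drives entry into mitosis, fell by 3.33 (adjusted p = 0.00476 by limma) and is shown as a cell division gene. Capitals mark the CCAAT box (CCAAT, or ATTGG on the other strand) and the cell cycle genes homology region, or CHR (TTTGAA, or TTCAAA on the other strand, and TTTAAA, which reads the same on both), an element of many mitotic promoters.
Nrk: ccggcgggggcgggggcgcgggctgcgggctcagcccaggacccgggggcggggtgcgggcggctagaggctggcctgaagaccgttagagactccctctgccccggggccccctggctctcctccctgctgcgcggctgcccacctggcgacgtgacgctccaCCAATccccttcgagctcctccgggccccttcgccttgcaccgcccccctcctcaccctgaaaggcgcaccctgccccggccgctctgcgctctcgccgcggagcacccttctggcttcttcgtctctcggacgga
Lpar4: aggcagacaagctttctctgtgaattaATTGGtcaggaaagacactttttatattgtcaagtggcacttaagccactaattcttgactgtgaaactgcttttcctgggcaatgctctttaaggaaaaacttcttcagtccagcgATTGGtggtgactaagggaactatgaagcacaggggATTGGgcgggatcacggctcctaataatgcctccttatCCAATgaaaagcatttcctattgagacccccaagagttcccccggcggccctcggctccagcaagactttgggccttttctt
Tedc1: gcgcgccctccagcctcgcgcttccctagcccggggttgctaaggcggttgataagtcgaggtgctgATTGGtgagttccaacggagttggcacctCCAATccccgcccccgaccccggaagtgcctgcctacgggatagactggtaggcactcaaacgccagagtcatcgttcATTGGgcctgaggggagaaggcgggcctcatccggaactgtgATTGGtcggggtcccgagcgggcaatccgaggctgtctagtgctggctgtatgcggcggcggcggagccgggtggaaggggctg
Cdk1: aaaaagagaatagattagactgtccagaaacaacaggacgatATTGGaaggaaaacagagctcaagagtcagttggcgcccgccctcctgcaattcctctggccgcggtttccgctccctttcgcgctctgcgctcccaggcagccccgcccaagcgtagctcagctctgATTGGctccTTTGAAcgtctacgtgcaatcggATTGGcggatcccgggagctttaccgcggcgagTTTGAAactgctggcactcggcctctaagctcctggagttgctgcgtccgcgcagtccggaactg
The Nrk window held 1 CCAAT box and no CHR, those of Lpar4 and Tedc1 held 4 CCAAT boxes each and no CHR, and that of Cdk1 held 3 CCAAT boxes and 2 CHR matches.

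Among the genes called lower, 72 had a window in the reference, 77 windows in all. A CCAAT box was found in 66.2% of these windows, a CHR in 53.2% and both in 41.6%, against 37.4%, 27.6% and 10.7% of the 32851 windows of 27025 genes in the reference. The lower genes of cell division or histones carried both in 52.5% of 61 windows, and those outside them in 0 of 16, with a CCAAT box in 56.2% and a CHR in 12.5%. Only 6 genes called higher had a window (7 windows), with a CCAAT box in 14.3% and a CHR in 28.6%. These shares describe letters within a fixed window and were not tested. Kcnj14, Spon1 and Prss57 had no entry.

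Nrk, an X-linked kinase of the Ste20 family best known from the placenta, had the largest fall outside cell division. Its levels were -2.13, -2.82, -1.07, -1.71 and -2.24 on days 1, 6, 10, 14 and week 0, and -5.79, -7.51, -5.71, -4.76 and -8.05 on weeks 6, 9, 12, 15 and 18. Every late array lay below every early one, the nearest being week 15 and day 6. The level fell by 4.37 (SE 0.61, adjusted p = 0.00981 by limma), from -1.99 ± 0.65 early to -6.36 ± 1.37 late (SD, n = 5 each), and it was well above background on 5 of 5 early and 2 of 5 late arrays. Late arrays averaged -4.13 against the LFC week 0 array, and on HFC the difference was -4.20 (unadjusted p = 4.65e-06), with no overlap there either. The Nrk difference was -0.88 under normexp and did not pass there.

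Npnt, nephronectin, a basement membrane ligand of integrin, stood at -5.52, -5.37, -4.19, -4.23 and -5.47 early and -7.51, -7.42, -7.85, -8.29 and -7.42 late. All 5 early arrays and none of the late ones were well above background. By the processed signal Npnt was thus at least 3.94-fold lower late (adjusted p = 0.00802 by limma, not independent of the filter). Its second probe fell by 2.51 (adjusted p = 0.0435). The direction of Npnt turned under normexp (0.42), so it depends on how background was treated.

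Spon1, F-spondin, a secreted matrix protein first known from the nervous system, was at 0.27, 0.73, 1.00, 1.22 and 0.64 on days 1, 6, 10, 14 and week 0, and -0.59, -0.43, -1.82, -1.21 and -1.26 on weeks 6, 9, 12, 15 and 18. All early values were above 0 and all late ones below. It fell by 1.84 (SE 0.33, adjusted p = 0.0303 by limma), and late arrays averaged -1.70 against week 0. A dimmer second probe gave -1.50 (adjusted p = 0.287).

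Megf6, a large protein with many EGF-like repeats, stood at -0.93, -1.61, -0.75, -0.10 and -1.23 early and -2.15, -2.59, -2.79, -2.54 and -3.17 late. Day 14 was the highest and week 18 the lowest, and the groups did not overlap. The fall was 1.73 (SE 0.33, adjusted p = 0.0437 by limma), with -1.42 against week 0 and -0.72 on HFC, where the groups overlapped. Lpar4, an X-linked receptor for lysophosphatidic acid, was the 16th fall and so lay just past the 15 genes the rule takes. Its levels were 0.49, 0.55, 0.99, 0.95 and 0.40 early and -1.31, -0.56, -1.21, -0.25 and -0.93 late, a narrow early range against a wider late one. It fell by 1.53 (SE 0.29, adjusted p = 0.04 by limma), the HFC difference was -0.59 (unadjusted p = 0.115), and a far dimmer second probe gave -0.85 (adjusted p = 0.629).

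Pask, a PAS domain kinase that responds to nutrients, was at -0.70, -0.30, -0.77, -0.84 and -1.33 on days 1, 6, 10, 14 and week 0, and -2.88, -2.82, -2.60, -2.71 and -3.57 on weeks 6, 9, 12, 15 and 18. Week 0 was the lowest of the early arrays and still above week 12, the highest of the late ones. Pask fell by 2.12 (SE 0.29, adjusted p = 0.00919 by limma), and its call was among the steadier ones, kept in 18 of 22 alternative fits. On HFC the difference was -1.74 (unadjusted p = 0.0017) without overlap.

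Nt5dc2, a member of the nucleotidase family, stood at -2.07, -1.23, -2.03, -2.36 and -3.48 early and -3.85, -5.23, -4.67, -4.83 and -5.03 late. Week 0 was the lowest early array and close to week 6, the highest late one. The fall of 2.49 (SE 0.43, adjusted p = 0.0237 by limma) was -1.24 when the late arrays were set against week 0 alone. Kcnj14, an inwardly rectifying potassium channel, was at -2.93, -2.26, -3.48, -3.61 and -3.97 early and -5.83, -5.08, -5.75, -5.75 and -4.62 late, without overlap, and fell by 2.16 (SE 0.39, adjusted p = 0.0302 by limma). Against week 0 in both diets, the comparison within 1 scan period, its difference was -0.71 (unadjusted p = 0.224), and under normexp on LFC it was near 0 (-0.0030).

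Of the other 8 named falls, most are of proteins known from dividing cells, though the cell division list did not hold them. Mxd3, a partner of MAX in the MYC network, had the second largest fall of the 15, from levels of -2.62, -0.97, -2.55, -1.96 and -2.52 early and -4.96, -4.83, -6.30, -4.83 and -5.80 late. Day 6 was the highest and week 12 the lowest. It fell by 3.22 (SE 0.42, adjusted p = 0.00787 by limma), and a second probe fell by 2.76 (adjusted p = 0.0225). Cip2a, an inhibitor of protein phosphatase that stabilises MYC, fell by 2.19 (SE 0.42, adjusted p = 0.0413 by limma), from -3.28 ± 0.57 early to -5.47 ± 0.75 late (SD, n = 5 each), though its dimmer probe gave -1.55 (adjusted p = 0.214). The called probe was well above background on 5 of 5 early and 2 of 5 late arrays, with -0.14 in an alternative fit.

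Some of these genes act at replication forks or on mitotic chromatin. Lrr1, the receptor of a ubiquitin ligase that unloads the replicative helicase, was at -3.04, -2.45, -3.83, -3.05 and -3.14 early and -5.47, -5.76, -7.71, -6.14 and -5.30 late, and week 12 was the lowest by far. It fell by 2.97 (SE 0.46, adjusted p = 0.0151 by limma). Lrr1 was well above background on 5 of 5 early and 1 of 5 late arrays, and its difference came down to -0.15 in an alternative fit. Haspin, the mitotic kinase of histone H3, fell by 2.06 (SE 0.41, adjusted p = 0.0496 by limma), just inside the threshold, with -0.32 in an alternative fit. Mms22l, which helps repair stalled forks, stood at -2.73, -2.50, -3.86, -2.85 and -3.72 early and -4.56, -4.95, -4.78, -4.81 and -4.83 late, with the late arrays within a narrow band, and fell by 1.66 (SE 0.32, adjusted p = 0.0437 by limma). The Mms22l difference was 0.080 under normexp.

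Tedc1, a centriole protein that works with epsilon and delta tubulin, was well above background on all early and no late arrays. By the processed signal it was at least 5.59-fold lower (adjusted p = 0.00989 by limma, not independent of the filter). Efcab11, an EF-hand protein, was likewise below that mark on every late array. By the same signal it was at least 3.88-fold lower (adjusted p = 0.00283 by limma, with the same limit). Its levels were -5.19, -4.58, -4.26, -5.34 and -5.07 early and -7.44, -7.57, -7.41, -7.94 and -8.13 late. Arhgef39, a guanine nucleotide exchange factor, fell by 2.28 (SE 0.40, adjusted p = 0.0285 by limma) by its called probe, with -1.64 against week 0, and a brighter probe gave -2.18 (adjusted p = 0.0961). The called probe was well above background on 5 of 5 early and 1 of 5 late arrays. For Tedc1 week 0 was the lowest early array (-5.17) and the other 4 lay at -4.22 or above. Under normexp these 3 turned positive (0.24 for Tedc1, 0.34 for Efcab11 and 0.43 for Arhgef39), so their direction too depends on the background treatment.

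**Figure D1:**
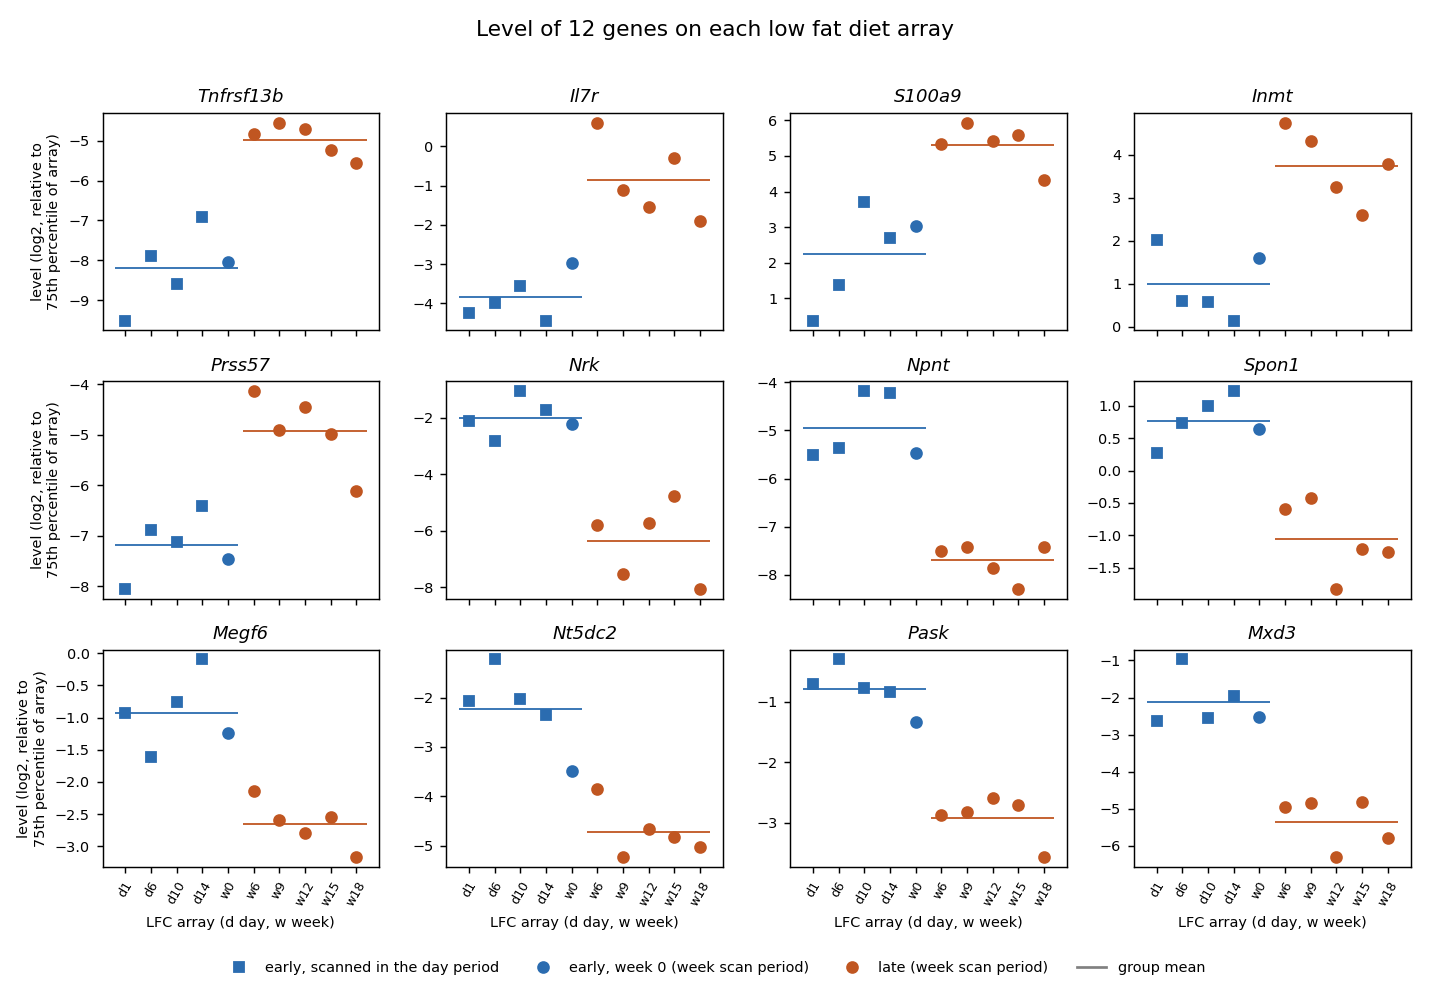
Level of 12 genes (log2, relative to the 75th percentile of the array, each panel with its own scale) on the 10 LFC arrays, with early arrays in blue (squares for the day scan period, circles for week 0) and late ones in orange, and lines at group means. In each panel no late array overlaps the early ones, and week 0 sits with the early arrays. It is closest to the late ones for Nt5dc2 (-3.48 against -3.85 at week 6). The genes were chosen on these same arrays, week 0 among them, so its place is no independent support.

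Of the 5 named rises outside immunoglobulins, 4 are known from blood cells and the other is Inmt. Tnfrsf13b, or TACI, a receptor of B lymphocytes and plasma cells for the survival factors BAFF and APRIL, stood at -9.51, -7.90, -8.58, -6.92 and -8.04 on days 1, 6, 10, 14 and week 0, and -4.84, -4.56, -4.70, -5.24 and -5.56 on weeks 6, 9, 12, 15 and 18. No early array and every late array was well above background. By the processed signal Tnfrsf13b was thus at least 5.69-fold higher late (adjusted p = 0.0097 by limma, not independent of the filter). Its difference came down to 1.03 in an alternative fit. On HFC the groups overlapped, since week 9 was at -6.87 and day 10 at -6.49.

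Il7r, the receptor for interleukin 7 on T lymphocytes and their precursors, was at -4.23, -4.0, -3.56, -4.44 and -2.97 on days 1, 6, 10, 14 and week 0, and 0.59, -1.11, -1.55, -0.30 and -1.90 on weeks 6, 9, 12, 15 and 18. Week 6 was the highest and all late arrays lay above the early ones. It rose by 2.98 (SE 0.49, adjusted p = 0.0194 by limma), from -3.84 ± 0.59 early to -0.86 ± 1.01 late (SD, n = 5 each), with 2.11 against week 0 and 2.88 on HFC (unadjusted p = 0.00149), where the groups did not overlap either.

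S100a9, a subunit of calprotectin, which fills the cytosol of neutrophils and monocytes, stood at 0.37, 1.36, 3.70, 2.70 and 3.02 early and 5.33, 5.92, 5.41, 5.59 and 4.31 late. The early arrays spread over more than 3 log2, lowest on day 1, while the late ones lay close together. It rose by 3.08 (SE 0.60, adjusted p = 0.0461 by limma), a call kept in 5 of 22 alternative fits. Its partner S100a8, named after its value was seen, differed by 3.09 (adjusted p = 0.0576) without overlap. Prss57, a serine protease of neutrophil granules, was well above background on 1 early and 4 late arrays, at -8.05, -6.88, -7.12, -6.41 and -7.46 early and -4.14, -4.91, -4.46, -4.99 and -6.11 late. Prss57 rose by 2.26 (SE 0.43, adjusted p = 0.0393 by limma), a call kept in 4 of 21 alternative fits.

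Inmt, indolethylamine N-methyltransferase, an enzyme that methylates tryptamine, was at 2.03, 0.60, 0.57, 0.14 and 1.61 on days 1, 6, 10, 14 and week 0, and 4.74, 4.33, 3.26, 2.59 and 3.78 on weeks 6, 9, 12, 15 and 18. Day 1 was the highest early array and week 15 the lowest late one, and the groups did not overlap. It rose by 2.75 (SE 0.49, adjusted p = 0.0292 by limma), from 0.99 ± 0.79 early to 3.74 ± 0.85 late (SD, n = 5 each). On HFC it differed by 3.19 (unadjusted p = 0.00117), again without overlap, and late LFC arrays averaged 2.13 above week 0. Inmt kept its direction in all 22 alternative fits (2.13 to 3.08) and passed in 8 of them.

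The lists of B and T lymphocytes and of neutrophils and monocytes differed upwards on balance, with 1 call in each, while of 9 erythroid genes 0 were called and 3 differed upwards (median -0.38). Of 32 B lymphocyte and plasma cell genes tested, 1 was called higher (Tnfrsf13b), 29 differed upwards and the median was 1.17 (0.96 against week 0), against 45.8% upwards and -0.05 over all probes. Without week 6 that median was 0.69: by array the list stood at -0.16 on week 6, -2.44 on week 9 and -1.20 on week 15, and at -2.79 and -2.64 on weeks 12 and 18, within the early range of -3.66 to -2.52. Week 6 also had the highest median of nerve and Schwann cell genes (1.00, against -2.92 to -0.64 on the other arrays) and of skeletal muscle genes (-0.997 against -3.50 to -1.76), and their part in the lymphocyte values was not tested. Pou2af1, a coactivator of antibody gene transcription, and Mzb1, a chaperone of antibody assembly, named after their values were seen, differed by 3.07 and 2.15 without overlap but did not pass (adjusted p = 0.0583 and 0.0754 by limma). Among 42 T lymphocyte and natural killer cell genes 1 was called (Il7r), 38 differed upwards and the median was 0.98 (0.99 against week 0 and 0.60 without week 6). The median level of that list was -0.48, -1.30, -3.42, -2.43 and -3.58 on weeks 6, 9, 12, 15 and 18 against -3.89, -3.56, -3.06, -3.46 and -3.15 early, so weeks 6, 9 and 15 were high and weeks 12 and 18 were within the early range. Of 20 neutrophil and monocyte genes 1 was called (S100a9), 19 differed upwards and the median was 1.57 (1.25 against week 0, and 0.91 with days 1 and 6 and week 12 left out together). By array that list stood at -0.28, -0.75 and -0.11 on weeks 6, 12 and 15. On weeks 9 and 18 it stood at -2.10 and -2.455, within the early range of -4.05 to -1.72. The summed level of 6 B lymphocyte markers ranged over -0.72 to 1.24 early and 0.83 to 3.86 late, and that of 6 T lymphocyte markers over -1.42 to -0.37 and -0.61 to 2.85, with 5 of each 6 well above background on every array. Their part in the single calls was not tested.

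Chemokines and lymphoid tissue factors had 0 of 36 called, 8 higher at an unadjusted p under 0.05 (817 of 29823 over all probes) and 35 upwards. Their median was 1.37, but 0.52 against week 0 and 0.91 without day 1. Cxcl13, which attracts B lymphocytes, spread widely at -3.21, -4.95, -1.34, -1.43 and -1.15 early and 0.43, -2.10, 2.29, 2.30 and 0.32 late, with overlap, and differed by 3.06 (adjusted p = 0.388 by limma). Ccl24, a chemokine for eosinophils, differed by 2.11 (adjusted p = 0.284) and by 0.72 against week 0. Mast cell genes had 0 of 12 called and 3 higher at an unadjusted p under 0.05, with Mcpt4, a chymase, at 1.99 (adjusted p = 0.236) and the carboxypeptidase Cpa3 at 1.55 (0.581).

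Resident macrophage genes, those of the perivascular and scavenging type, had 0 of 24 called by limma, 9 higher at an unadjusted p under 0.05 and 22 upwards, with a median of 0.73. That median was -0.10 against week 0, which itself stood at 1.61 with day 6 at 1.47, while days 1, 10 and 14 stood at 0.23 to 0.54. Cd209a, a lectin of dendritic cells and macrophages, was at -5.94, -5.40, -5.67, -6.22 and -4.56 early and -3.82, -3.62, -3.65, -2.04 and -3.92 late. Week 15 was far above the other late arrays, week 0 was the highest early one, and the difference of 2.15 did not pass (adjusted p = 0.0576). Cd209d differed by 2.46 (adjusted p = 0.166) with 0.47 against week 0. Of 18 genes of lipid-laden macrophages 0 were called and 2 were higher at an unadjusted p under 0.05, with Gpnmb at 2.21 (adjusted p = 0.188) and 4.13 on HFC, and Trem2 at 1.17 (adjusted p = 0.56).

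Interferon-stimulated genes lay on the other side, with 0 of 38 called by limma, 5 lower at an unadjusted p under 0.05, 10 upwards and a median of -0.47 (-0.72 against week 0). Their median level was 1.15, 1.17, 1.21, 2.03 and 2.12 early and 1.92, 1.97, -0.54, 2.02 and 1.21 late, low on week 12 alone, and without that array the list median was -0.17. Usp18, a brake on interferon signalling, differed by -1.16 without overlap (adjusted p = 0.397).

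**Figure D2:**
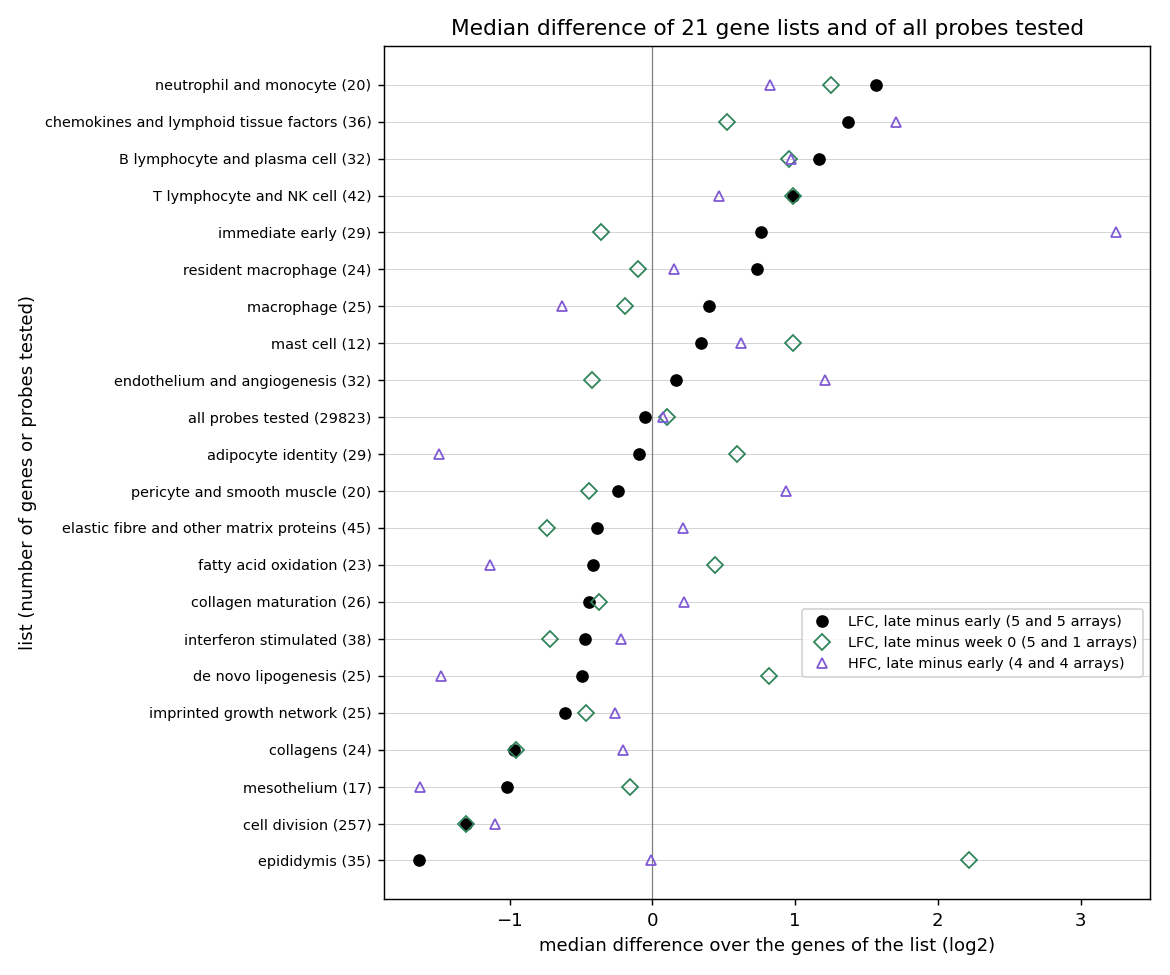
Median difference (log2) over 21 gene lists and over all 29823 probes tested, for late minus early on LFC (black circles, 5 and 5 arrays), late minus week 0 on LFC (green diamonds) and late minus early on HFC (purple triangles, 4 and 4 arrays), with the number of genes of each list in brackets. Blood cell lists lie to the right and collagens, cell division and epididymis to the left for late minus early. Against week 0 the epididymis (2.22), lipogenesis (0.82), adipocyte identity (0.59) and fatty acid oxidation (0.44) lists change to the right, as do all probes (0.10). The endothelium (-0.43), immediate early (-0.36), macrophage (-0.19) and resident macrophage (-0.10) lists change to the left.

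Structural matrix genes mostly differed downwards on LFC, with no gene of these lists past the threshold by limma. Of 24 collagens 0 were called, 4 were lower at an unadjusted p under 0.05 and 23 differed downwards (95.8% against 54.2% of all probes), with a median of -0.97. Against week 0 the median was -0.96, while on HFC it was -0.21. By array the collagen median was 2.02, 2.20, 2.73, 3.10 and 2.81 on days 1, 6, 10, 14 and week 0, and 2.71, 2.60, 0.15, 1.58 and 0.64 on weeks 6, 9, 12, 15 and 18. Weeks 6 and 9 thus lay within the early range, and weeks 12, 15 and 18 lay below all early arrays. Leaving out week 12 brought the median to -0.63, and leaving out days 1 and 6 and week 12 together, an alternative chosen after seeing the data, gave -0.87.

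Col4a2, a chain of basement membrane collagen, differed by -1.62 (adjusted p = 0.471 by limma) on one probe and -1.29 on its brighter one, and Col15a1, a collagen between basement membrane and stroma, by -1.16 (0.468). Of 45 elastic fibre and other matrix genes 0 were called, 7 were lower and 2 higher at an unadjusted p under 0.05, 33 differed downwards and the median was -0.39 (-0.74 against week 0). That median was -0.22 without day 14, -0.61 without week 6, -0.70 without week 9 and -0.08 without week 12, and on HFC it was 0.21, with 27 of the 45 genes upwards. Mfap4, a microfibril protein that binds elastin, stood at 1.99, 2.50, 3.77, 3.19 and 1.73 on days 1, 6, 10, 14 and week 0, and 0.73, 0.57, -1.05, 0.81 and -2.25 on weeks 6, 9, 12, 15 and 18. It was highest on days 10 and 14 and lowest on week 18, the groups did not overlap, and its difference of -2.88 did not pass (adjusted p = 0.0982). Fbn2, the fibrillin of developing microfibrils, differed by -2.59 (adjusted p = 0.0966) and by -3.03 on HFC (unadjusted p = 0.000888), and was well above background on 2 of 5 late arrays. Eln, elastin itself, named after its value was seen, differed by -3.20 with overlap (adjusted p = 0.267).

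Enzymes that finish or cut matrix proteins did not share 1 direction. Of 26 collagen maturation genes 0 were called and 20 differed downwards, with P3h1, a prolyl hydroxylase, at -1.45 (adjusted p = 0.282 by limma) and Pcolce2, an enhancer of procollagen cleavage, at 2.19 (0.169, 0.76 against week 0). Among 29 proteases and inhibitors 0 were called. Adam12, a metalloprotease of growing muscle and fat, was at -2.94, -2.21, -3.69, -4.17 and -3.06 early and -4.79, -4.92, -5.49, -7.53 and -5.52 late without overlap and differed by -2.44 (adjusted p = 0.0995). Mmp9, a gelatinase of neutrophils and macrophages, differed by 1.68 on one probe (0.108) and by 0.98 on the other, and on HFC by -0.10.

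Imprinted growth genes had 0 of 25 called by limma and 7 lower against 1 higher at an unadjusted p under 0.05, with a median of -0.61 (-0.47 against week 0 and -0.26 on HFC). Without week 12 it was -0.27, and under normexp -0.13: the list stood at -1.88 on week 12 and at -0.07, 0.77, 0.52 and -0.09 on weeks 6, 9, 15 and 18, within the early range of -0.13 to 0.87. Dlk1, or Pref-1, which holds preadipocytes undifferentiated, stood at -0.40, -1.89, -2.03, -1.90 and -1.84 on days 1, 6, 10, 14 and week 0, and -2.51, -2.88, -4.81, -3.03 and -2.94 on weeks 6, 9, 12, 15 and 18. Day 1 was far above the other early arrays and week 12 far below the other late ones, and the difference of -1.62 did not pass (adjusted p = 0.326). Mest, a paternally expressed gene tied to fat pad expansion, was at 2.07, 2.44, 3.00, 3.16 and 3.27 early and -0.07, 1.80, 0.19, 1.27 and 2.49 late and differed by -1.65 (adjusted p = 0.357), with -2.13 against week 0. H19, the maternally expressed RNA beside Igf2, named after its value was seen, differed by -2.88 with overlap (adjusted p = 0.359).

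Apln, apelin, a peptide of adipocytes and vessel tips, was at 1.15, 1.84, 1.24, 2.12 and 2.04 on days 1, 6, 10, 14 and week 0, and -0.55, 0.42, -0.08, 0.91 and 0.01 on weeks 6, 9, 12, 15 and 18. The lowest early array, day 1, was above the highest late one, week 15. Its difference of -1.53 did not pass (adjusted p = 0.0962 by limma), and a second probe of similar brightness gave -1.83 (adjusted p = 0.188). Angptl2 differed by -1.47 on one probe and -0.62 on its brighter one, and Sfrp1, a Wnt inhibitor, by -1.66 on a dim probe and -0.91 on a bright one. The dim Sfrp1 probe turned to 0.20 under normexp. Of 36 Wnt pathway genes 0 were called, 2 were lower at an unadjusted p under 0.05 (1411 of 29823 over all probes) and the median was -0.12.

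Chromatin regulators as a list had a median of -0.11 with 0 of 30 called by limma (3 higher and 4 lower at an unadjusted p under 0.05). Its leading genes went opposite ways. Cbx7, a reader subunit of the Polycomb complex, stood at -1.30, -1.79, -1.27, -0.81 and -0.92 on days 1, 6, 10, 14 and week 0, and 0.18, -0.31, 0.31, 0.89 and 0.63 on weeks 6, 9, 12, 15 and 18. All late arrays lay above the early ones and its difference of 1.56 was just outside the threshold (adjusted p = 0.0507), with 1.25 against week 0 and 1.36 on HFC (unadjusted p = 0.0058). Uhrf1, which guides maintenance DNA methylation in dividing cells, differed by -2.01 without overlap (adjusted p = 0.0591), and its brighter probe gave -2.14. The replication histones had 0 of 38 called, 7 lower at an unadjusted p under 0.05 and a median of -0.08.

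Adipocyte and lipid metabolism lists followed the 3 arrays that stood apart more than the period, with week 18 near them for adipocyte identity. The median of 25 de novo lipogenesis genes was 3.98, 4.32, 1.78, 1.25 and 1.15 on days 1, 6, 10, 14 and week 0, and 1.45, 1.62, 5.33, 0.69 and 2.81 on weeks 6, 9, 12, 15 and 18. Days 1 and 6 and week 12 were the highest. None of the 25 was called or reached an unadjusted p of 0.05, and the median difference of -0.50 became 0.82 against week 0. Adipocyte identity genes had 0 of 29 called and 0 at an unadjusted p under 0.05, with a median of -0.10 (0.59 against week 0 and -1.50 on HFC). Their median level was 5.485 on day 1, 6.162 on day 6, 5.699 on week 12 and 5.487 on week 18. On the other arrays it ran from 2.231 (week 6) to 4.099 (day 10). Fabp4, the fatty acid carrier of adipocytes, was saturated on all 10 arrays and differed by 0.53 (adjusted p = 0.771 by limma), a value that saturation limits. Lep, leptin, spread from -2.52 to 2.32 on the late arrays and differed by 1.26 (adjusted p = 0.764).

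Immediate early genes, transcription factors that a stimulus switches on within minutes, showed the reverse of lipogenesis, with medians of 1.78, 1.19, 4.41, 4.91 and 4.85 on days 1, 6, 10, 14 and week 0, and 4.97, 4.99, -0.51, 5.08 and 5.19 on weeks 6, 9, 12, 15 and 18. They were low on days 1 and 6 and week 12, and 0 of 29 were called or reached an unadjusted p of 0.05. Their median difference was 0.76 on LFC (-0.36 against week 0) and 3.25 on HFC. Epididymis genes were high on days 1, 10 and 14 and week 9 (medians of -0.36 to 0.66) and between -7.19 and -4.90 on the other 6 arrays. Their median difference of -1.64 became 2.22 against week 0, and 0 of 35 were called or reached an unadjusted p of 0.05. Mesothelial genes, from the sheet that covers the pad, had 0 of 17 called, with a median of -1.02 (-0.15 against week 0, -0.35 without week 6, -0.50 without week 18 and -0.43 under normexp) and median levels lowest on weeks 6 (-1.15) and 18 (-1.84). Cytosolic ribosomal proteins had 0 of 84 called, 72 upwards and a median of 0.28, which was -0.016 under quantile scaling. In the other 34 lists, such as cholesterol synthesis, the circadian clock and Hox genes, 0 genes were called by limma, at most 3 per list were higher and at most 3 lower at an unadjusted p under 0.05, and medians ran from -0.95 (major urinary proteins) to 0.80 (glucocorticoid targets). The part of the lists that follow single arrays in the calls was not tested. With days 1 and 6 and week 12 left out together, none of the 5 rises and 16 falls named above passed. Their direction could not turn there, since these genes did not overlap between the groups.

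**Figure D3:**
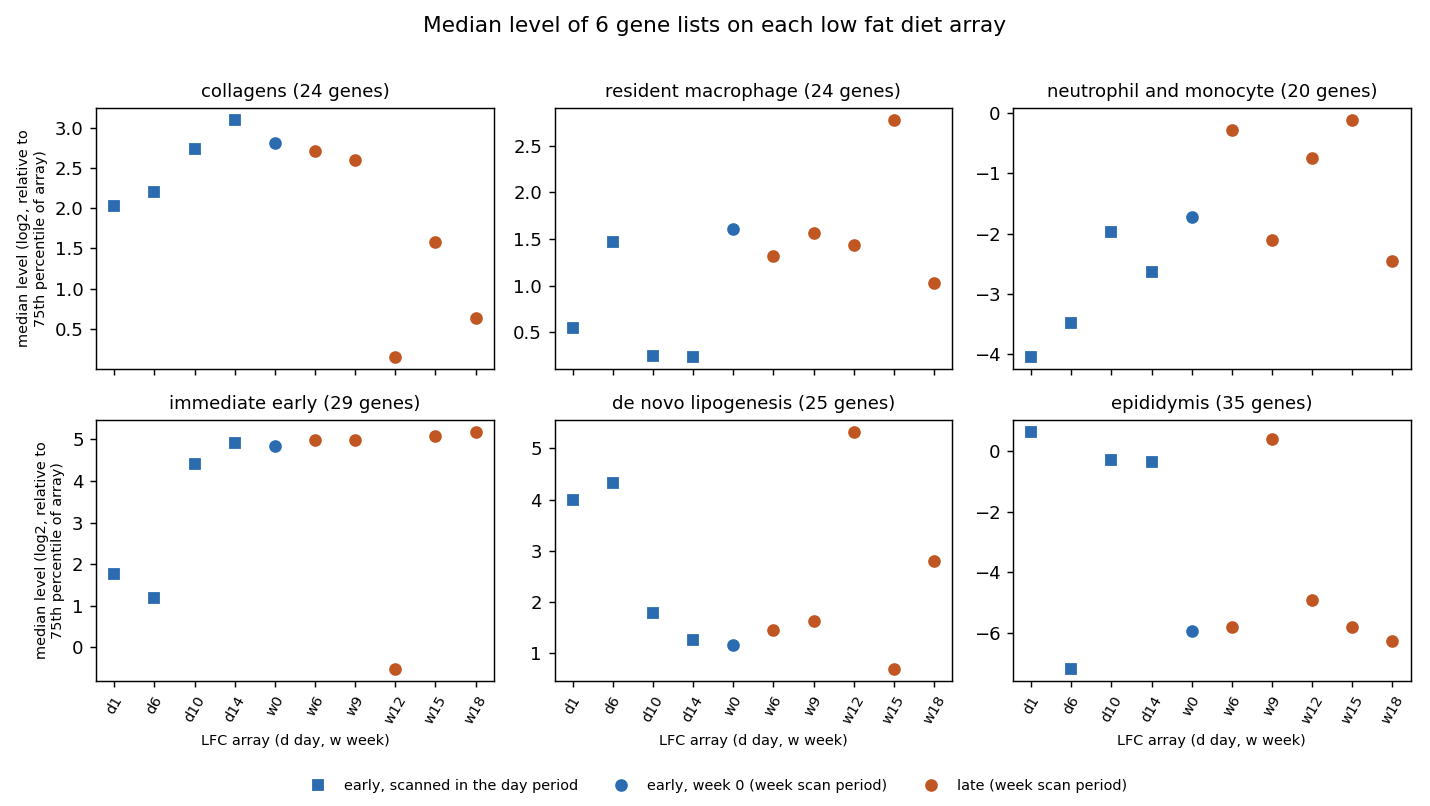
Median level (log2, relative to the 75th percentile of the array, each panel with its own scale) of 6 gene lists on the 10 LFC arrays, early arrays in blue (squares for the day scan period, circles for week 0) and late ones in orange. Collagens are lowest on weeks 12, 15 and 18, neutrophil genes are highest on weeks 6, 12 and 15, and immediate early, lipogenesis and epididymis genes follow single arrays rather than the period.

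Within 1 scan period, week 0 of both diets (2 arrays) was compared with the 9 late arrays of both diets. By limma 19 of 29823 probes passed (0.0637%), all of them immunoglobulin chains or probes described like them and all higher late, with 1891 at an unadjusted p under 0.05. None of the 21 rises and falls named above passed there. All 92 higher and all 125 lower probes kept their direction, with medians of 2.91 and -1.79 against 3.91 and -2.59 over the LFC arrays, but this is no independent support, since the week 0 LFC array took part in choosing those probes and the late LFC arrays are shared. Of the 92 higher probes 90, and of the 125 lower ones 118, had an unadjusted p under 0.05 in that comparison. Over all probes, 8995 of the 13648 higher late and 8028 of the 16175 lower late on LFC kept their direction there, 995 and 568 of them at an unadjusted p under 0.05.

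On HFC, in arrays the LFC contrast did not use, 0 of 29823 probes passed by limma (0%), with 8173 at an unadjusted p under 0.05 and a smallest adjusted p of 0.085. All 92 probes called higher and all 125 called lower on LFC had the same direction on HFC, with medians of 2.76 and -1.88. Over all probes, 10598 of the 13648 higher late and 10828 of the 16175 lower late on LFC had the same direction on HFC. Of the called probes, 87 of the 92 and 117 of the 125 reached an unadjusted p under 0.05 in that direction. Among all probes higher or lower late on LFC, 3886 of 13648 and 3588 of 16175 did so. Whatever their direction on LFC, 14.5% of all probes did so upwards and 12.9% downwards. The HFC mice share scan dates and scan periods with the LFC ones, so the diets do not separate the period from the scan. Among the named genes Nrk (-4.20) and Inmt (3.19) differed about as much as on LFC (-4.37 and 2.75), and S100a9 less (1.35 against 3.08), but the difference between diets did not pass for any of the 21 (adjusted p from 0.67 to 0.986).

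**Figure D4:**
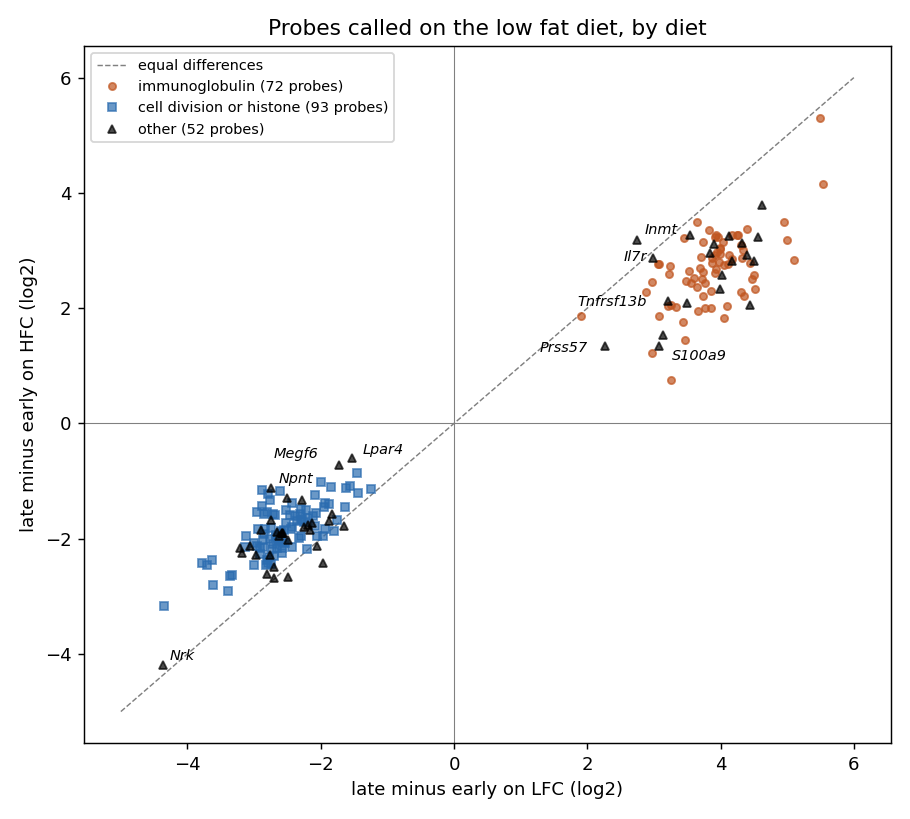
Late minus early difference (log2) on HFC (4 and 4 arrays) against LFC (5 and 5 arrays) for the 217 probes called on LFC, with immunoglobulin probes in orange, cell division or histone probes in blue, other probes as black triangles and a dashed line of equal differences. All points lie in the upper right or lower left of the plot, and most lie nearer to 0 on HFC than on LFC, as chosen on LFC.

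The change from early to late differed between diets for 2 of 29823 probes (0.00671%) by limma on the 8 paired differences. Olfr340, an olfactory receptor, and Slc6a3, the dopamine transporter, differed by 4.33 and 3.83 (adjusted p = 0.0314 for both). Olfr340 was at -6.94, -6.81, -7.76 and -9.16 on the early and -3.65, -5.19, -5.45 and -4.67 on the late HFC arrays. On the paired LFC arrays it was at -5.13 to -7.77 early and -7.4 to -8.37 late. Both were dim, and neither passed when any 1 time point was left out.

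The immunoglobulin and cell division genes, which hold most of the calls, are given in brief. Of 91 immunoglobulin genes tested 69 were called higher, with a median of 3.73 (1.83 under normexp), led by Igk-V21-4, Ighv1-77 and Igh. Igh, the heavy chain, stood at 0.95, 1.05, 1.02, 1.23 and 0.76 early and 4.93, 6.68, 5.83, 4.21 and 4.88 late and rose by 4.30 (SE 0.43, adjusted p = 0.00283 by limma), a size that saturation of its probe on week 12 limits. Of 257 cell division genes 71 were called lower and none higher, 237 differed downwards and the median was -1.30 (-1.31 against week 0 and -1.10 on HFC, but -0.48 under normexp and -0.63 under normexp with no offset). Pbk, a mitotic kinase, was at -0.47, 0.24, -0.26, 0.00 and -0.17 early and -3.19, -3.20, -5.34, -2.93 and -4.92 late and fell by 3.78 (SE 0.49, adjusted p = 0.0071 by limma). Pimreg, a regulator of the metaphase to anaphase step, fell by 3.71 (SE 0.54, adjusted p = 0.0119 by limma), with -3.96 against week 0. Aunip, a partner of the Aurora A kinase, was well above background on no late array. By the processed signal it was at least 13.9-fold lower (adjusted p = 0.0195 by limma, not independent of the filter). Its difference came down to -0.54 in an alternative fit.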

How the data were processed

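Cy3-labelled RNA of epididymal adipose was hybridised to Agilent one-colour arrays. Per the file headers, the deposited scanner files hold the intensity of each spot, background-subtracted and detrended within the array by Feature Extraction 10.5.1.1 (the submitters' processing notes name 9.1), with no normalization between arrays and annotation on mm9. The authors' deposited series table holds log2 values relative to LFC, with LFC at 0 throughout, and was not used. The log2 processed signal of non-control spots was centred on the array's 75th percentile, outlier spots were set to missing, spots of a probe were averaged, and probes well above background on at least 5 of the 10 arrays were tested (29823 of 40628). Accessions of 28136 probes (69.3%) matched RefSeq symbols, and probes without a match keep the name in the files.

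Differences were tested two-sided with limma 3.58.1 in R 4.3.3, with Benjamini-Hochberg adjustment over all probes tested and a threshold of 0.05. The fit was tested on data simulated with each probe's own spread and 50 changed probes per size. It called 2% of changes of 1 (log2), 56% of 2, 72% of 3 and 80% of 4. A count of 0 called therefore says little about changes near 1. Samples were grouped by the labels, 5 against 5 arrays. The number of arrays limits the precision. For the week 0 comparison diet was a covariate, and the difference between diets was fitted on 8 paired time points. Named genes were the 15 largest rises and falls past the threshold outside cell division, histones and immunoglobulins (5 rises and 15 falls), at most 3 of each excluded list, and in each of 59 lists the called members or the 2 with the smallest p, of which those of the lists described are given. A list is summarised by the brightest probe of each gene. The members and lists were chosen with earlier results of these data known. A probe above background in no array of a group has only a bound, its fold taken, per array of the dim group, against the higher of its own signal and the lowest signal well above background. The bound is for the processed signal and need not hold under another background treatment. Alternatives were normexp, quantile and median scaling, kept outlier spots, other filters, array weights, scan period as a block, the methods' t-test and leaving out each array. Figures were drawn with matplotlib 3.10.9.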

Additional observations from a re-analysis of the deposited data

Results flagged for a closer look

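Several values stood apart from their group by Dixon's criterion, 6 of the 108 groups tested (54 genes, early and late), and chance flags about 1 in 20 groups. Igk-V21-4 was at -1.96 on day 14 against -6.23 or below on the other early arrays. Dlk1 was at -0.40 on day 1, above the next early value of -1.84, and at -4.81 on week 12, below the next late value of -3.03. Week 15 held the lowest late values of Adam12 (-7.53, the next being -5.52) and Angptl2 (-4.01 against -2.62) and the highest of Cd209a (-2.04 against -3.62). The late minus early difference was larger on HFC than on LFC by 4.33 for Olfr340 and by 3.83 for Slc6a3, tested on the paired differences.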

How the results depend on the processing

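The count of probes called late against early on LFC was 217. It was 2 under normexp, 1 under normexp with no offset and 2 with days 1 and 6 and week 12 left out together (both chosen after seeing the data), 0 with the scan period as a block (585 at an unadjusted p under 0.05), 119 when only probes above background on all arrays were kept, 138 with the week 3 array and 71 by the methods' t-test. Leaving out 1 array gave 116 to 205, lowest without day 6, and moved the count over 1.5 times also without days 10 (144) and 14 (127) and weeks 9 (133) and 15 (139). Reversed directions occurred under normexp for Tedc1 (0.24), Efcab11 (0.34), Npnt (0.42), Arhgef39 (0.43), Mms22l (0.080) and Sfrp1 (0.20), and with no offset for Efcab11 (0.20), Npnt (0.38), Arhgef39 (0.40) and Sfrp1 (0.046). The cause was not tested. Week 0 against the late weeks gave 19, and 0 under normexp, 3 under quantile scaling, 2 under median scaling, 4679 with array weights, 0 with LFC arrays only and 0 to 30 without 1 array. HFC gave 0, and 7487 with array weights and 0 to 6204 without 1 array, highest without week 0 and 2 without day 14. The difference between diets gave 2, and 0 under normexp, quantile or median scaling, with only probes above background on all arrays, with no filter on dim probes, with weeks 3 and 12, and without each time point (0 to 0). The median of all probes shifted to 0.26 under normexp. Of the gene results under the alternatives 879 kept direction and side of the threshold, 272 kept direction but no longer passed and 9 newly passed. A random block of scan date was not run, since each of the 10 arrays has its own date. No paired analysis was possible because the replicate numbers are accession order only and early and late arrays share no time point, and only the difference between diets was paired, by time point. Dim probes limit what the signal over background can show.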
